A study of Arabidopsis arenosa x Arabidopsis thaliana and Arabidopsis thaliana and Arabidopsis arenosa with 5 samples.

Results

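Arabidopsis allotetraploids carry the chromosomes of both A. thaliana and A. arenosa, so that most of their genes have an allele (a homoeologous copy) from each species. Here the RPKM (reads scaled to transcript length and library size) of the A. arenosa allele was set against that of the A. thaliana allele in F8 allotetraploids. Each gene was represented by its transcript with the highest sum of both alleles, and genes with a sum of at least 5 RPKM were kept. This left 9683 genes of the 10890 listed for F8, in a series whose parental tables list 32313 genes. The allele ratio is log2(RPKM + 1) of the A. arenosa allele minus that of the A. thaliana allele, so it is positive where the A. arenosa allele was higher, and it understates the difference of low genes because of the added 1. A gene is called toward an allele where the ratio reached 2-fold, a log2 size of 1.

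The study measured mRNA of rosette leaves, taken before bolting, in 5 groups grown in 16 h of light at 22 °C and 8 h of dark at 20 °C. The groups were autotetraploid A. thaliana of the ecotype Landsberg erecta (3 to 4 weeks old), autotetraploid A. arenosa Care-1, resynthesized F1 allotetraploids, F8 allotetraploids and A. suecica, a natural allotetraploid of the same parental species, the last 4 at 6 to 7 weeks. F8 and A. suecica have 1 library each, so their differences are sizes with no test. The F1 and both parents have 3 replicate columns each, and since no label says that they came from separate plants, their p-values measure only the spread between columns. How many plants were pooled, and whether F8 is a single line, is not stated in the labels.

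The leaf label held: all 10 leaf markers were members, with sums of alleles from 642 to 19679 RPKM. None of the 8 flower markers was listed for F8, 2 of 7 root markers were members at 6.87 and 6.91 RPKM, and 2 of 5 senescence markers at 7.55 and 8.51 RPKM. The depth of each library is unknown, since RPKM tables give no counts, and the number of copies of each allele in the DNA was not measured. In bulk leaves, fewer cells of a type and less RNA per cell cannot be told apart. A. arenosa replicate 1 stands apart, with genes annotated as rRNA taking 47.6% of the RPKM total, where the remaining parental columns had 0.13% to 1.68%, so parental values are also given without it.

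In an allopolyploid, the alleles of a gene share a nucleus and its proteins, but each keeps its own promoter, coding sequence and chromosomal neighbourhood. A gene whose alleles give very unequal amounts of mRNA is said to show homoeolog expression bias. In a rosette leaf, most mRNA comes from genes for photosynthesis and protein synthesis, while genes for defence, secondary metabolism and cell wall change are expressed at lower and more variable levels.

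The alleles of most F8 genes kept here were expressed at like levels, and the larger differences were more often toward A. arenosa. The A. arenosa allele was at least 2-fold higher in 1112 genes (11.5%) and the A. thaliana allele in 746 (7.7%), while 7825 genes were called toward neither. At 4-fold the counts were 319 genes (3.29%) toward A. arenosa and 150 (1.55%) toward A. thaliana. The A. thaliana allele was listed at 0 in 104 genes (1.07%) and the A. arenosa allele in 29 (0.299%). All 9683 members are also listed for the F1, where the lowest allele value is 0.0113 RPKM. A gene that lacked an allele in the F1 is thus not among the members. The shares given here do not extend to all expressed genes. The median ratio was 0.02, with quartiles of −0.42 and 0.50, and the A. arenosa allele was the higher in 4946 genes and the A. thaliana allele in 4737. A. arenosa alleles gave 52.4% of the RPKM summed over members, or 51.5% without the single gene LHB1B2. The excess toward A. arenosa depends on the scale. With both sets of alleles scaled to the same sum, 933 genes were called toward A. arenosa and 968 toward A. thaliana. The share of calls toward A. arenosa thus went from 59.8% to 49.1%, and the median ratio shifted by −0.12. With all ratios centred on their median instead, the counts were 1082 and 772, so the excess remained.

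Genes lie close to these limits on both sides. The lowest member, MKS1, had a sum of 5.00006 RPKM, and the highest gene outside, AT1G04300, of 4.998 RPKM. AT2G40400 was called toward A. arenosa at a ratio of 1.001, and ACS6 was not at 0.9997. AT3G20300 was called toward A. thaliana at −1.0002, and AT4G39960 was not at −0.9951. In all, 346 members lay within 0.1 log2 units of the limit toward A. arenosa and 306 within that of the limit toward A. thaliana.

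**Figure D1:**
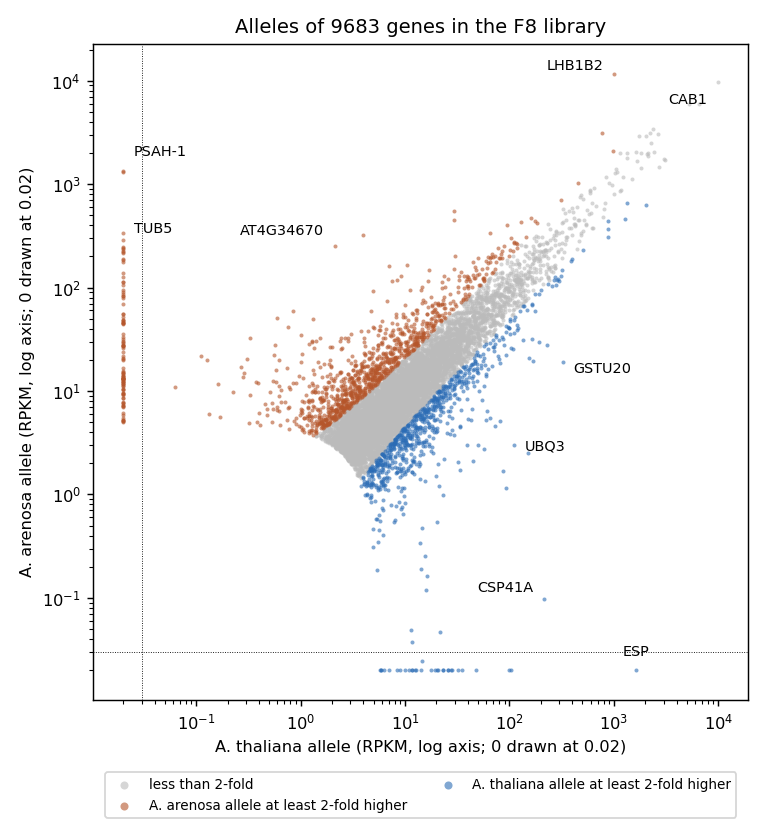
F8 RPKM of the A. arenosa allele against that of the A. thaliana allele for the 9683 genes, on log axes, each point coloured by its call. Most points are grey (less than 2-fold), and the genes with an allele listed at 0, 104 for A. thaliana and 29 for A. arenosa, are drawn at 0.02 RPKM beyond the dotted lines.

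Calls toward A. arenosa outnumbered those toward A. thaliana in every level class below 1000 RPKM. At a sum of 5 to 10 RPKM, 239 of 2725 genes (8.77%) were called toward A. arenosa and 174 (6.39%) toward A. thaliana. At 10 to 20 RPKM the counts were 323 and 228 of 2847 genes, and at 20 to 50 RPKM 309 and 205 of 2346. At 50 to 200 RPKM they were 180 and 106 of 1358, at 200 to 1000 RPKM 54 and 26 of 342, and at 1000 RPKM or more 7 and 7 of 65. With equal sums of both alleles, the order was kept only at 50 to 200 RPKM (154 and 136) and at 200 to 1000 RPKM (46 and 39).

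The median F8 ratio stayed between −0.00 and 0.09 in all 6 classes. In the same genes the median F1 ratio went from −0.09 at 5 to 10 RPKM over 0.13 at 20 to 50 RPKM to 1.04 at 1000 RPKM or more. The share of F8 genes called toward either allele was 15.2% in the lowest class and 19.4% to 23.4% in the others, but with 0.1 in place of 1 added to each RPKM it lay between 21.5% and 24.2% in all classes, so the lower share among weakly expressed genes depends on the constant. Genes with a close relative elsewhere in the genome (90% identity or more in the coding sequence) made up 2.41% of the lowest class and 17.2% of the highest, against 3.64% of all members, and their part in the counts by level was not tested.

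**Figure D2:**
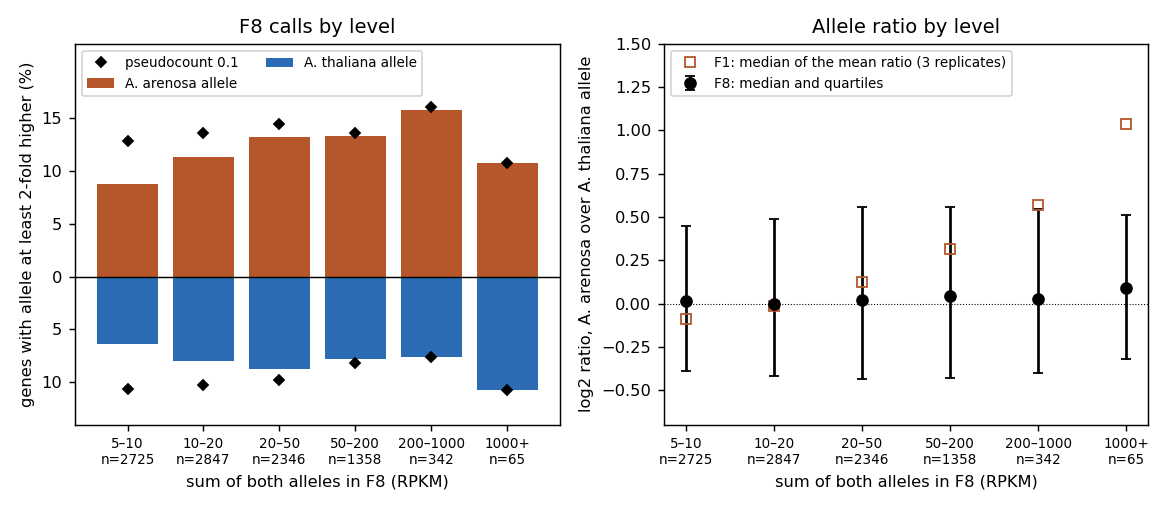
F8 genes by class of the sum of both alleles in RPKM, with the percent of genes called toward each allele (bars, and diamonds with 0.1 added to each RPKM), and the median log2 ratio in F8 (with quartiles) and in the F1. The F8 median stays near 0 in every class, while that of the F1 goes from −0.09 to 1.04.

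The 65 genes at 1000 RPKM or more held 35.3% of the summed RPKM, and 34 of them encode photosystem or light-harvesting proteins, of which 5 were called toward A. arenosa and 3 toward A. thaliana. Of the 10 genes with the highest sums, LHB1B2 alone was called. CAB1, a chlorophyll-binding protein of the main light-harvesting complex, had 10041 RPKM for A. thaliana and 9637 for A. arenosa. RBCS1A, a small subunit of the CO2-fixing enzyme Rubisco, had 6552 and 5962 RPKM.

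Toward A. arenosa stood LHB1B2, another light-harvesting chlorophyll-binding protein, with 1004 RPKM from the A. thaliana and 11646 from the A. arenosa allele in F8. Its A. thaliana and A. arenosa alleles were at 67.1 and 1444, 405 and 5289, and 346 and 10748 RPKM in F1 replicates 1 to 3, and at 1258 and 17446 in A. suecica. The A. arenosa allele was thus the higher in every allotetraploid library, and the F1 ratio was 4.36 (limma, adjusted p = 0.001). LHB1B1, its close relative, had 765 and 3129 RPKM in F8. PSBO2, of the oxygen-evolving complex of photosystem II, had 455 and 1027 RPKM, and GRP7, an RNA-binding protein under control of the circadian clock, 977 and 2066 RPKM. The chloroplast RNA-binding protein CP29 had 313 and 708 RPKM.

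PSAH2 and PSAH-1 encode subunit H of photosystem I, where the light-harvesting complex docks during state transitions. In F8 both were listed at 0 for the A. thaliana allele, with 1315 and 1345 RPKM for the A. arenosa allele. In the F1 the A. thaliana and A. arenosa alleles of PSAH2 were at 43.8 and 293, 128 and 676, and 230 and 782 RPKM, and in A. suecica at 181 and 1119. The A. thaliana allele of PSAH2 was thus listed at 0 in F8 but not in A. suecica. The F1 cannot be compared in this way, since all values listed for it are above 0. PSAH-1 had 120 and 316, 175 and 659, and 0.0897 and 1218 RPKM in the F1, where the adjusted p was 0.084 (limma), and 156 and 1295 in A. suecica. The coding sequences of the pair are 87.3% identical, and the labels do not say how the authors divided reads between them.

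The genes called toward A. thaliana in this class included DRT112, PSAD-1, PSAD-2, PSBY and PETC. DRT112, a plastocyanin that carries electrons from the cytochrome b6f complex to photosystem I, had 2020 RPKM from the A. thaliana and 623 from the A. arenosa allele in F8. Its alleles were at 450 and 316, 891 and 582, and 1372 and 951 RPKM in the F1, and at 1628 and 627 in A. suecica. The A. thaliana allele was the higher in all of these libraries, but the F1 ratio of −0.55 (limma, adjusted p = 0.019) was under 2-fold. PSAD-1 and PSAD-2, the ferredoxin-docking subunit of photosystem I, had 1326 and 651 RPKM and 878 and 305 RPKM.

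Most of these had F1 ratios in the other direction. PSAD-1 had 206 and 355, 525 and 907, and 701 and 1528 RPKM in the F1, a ratio of 0.90 toward A. arenosa (limma, adjusted p = 0.0069). PSBY, a small subunit of photosystem II, had 871 and 372 RPKM in F8 and an F1 ratio of 0.46. PETC, the Rieske iron-sulfur protein of the cytochrome b6f complex, had 885 and 441 RPKM in F8 and an F1 ratio of 0.18 (limma, adjusted p = 0.32). Across all 66 photosystem and light-harvesting members, 6 were called toward A. arenosa and 5 toward A. thaliana in F8, a split that turned to 6 and 8 with equal sums. In the F1, 24 passed the test toward A. arenosa and 1 toward A. thaliana, beside 8.45% and 4.41% of the 10222 genes tested. The F1 share toward A. arenosa was higher among strongly expressed genes of any function. At 1000 RPKM or more in F8, where 34 of these members lie, 32 of all 65 genes passed toward A. arenosa and 1 toward A. thaliana. Their median F1 ratio was 1.04. At 200 to 1000 RPKM the F1 counts were 83 and 2 of 342 genes.

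The most unequal gene of the class was ESP, the epithiospecifier protein that directs glucosinolate breakdown to nitriles. Its A. thaliana allele had 1644 RPKM in F8 and its A. arenosa allele was listed at 0. In the F1 the alleles were at 133 and 0.531, 350 and 0.281, and 1253 and 0.117 RPKM, and in A. suecica at 618 and 0. The A. thaliana allele alone gave nearly all ESP mRNA in every allotetraploid library, and the F1 ratio was −8.23 (SE 0.62, limma, adjusted p = 0.0021). AT2G45180, of the lipid-transfer protein family, had 1283 and 463 RPKM in F8 and an F1 ratio of 0.11 (limma, adjusted p = 0.58).

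**Figure D3:**
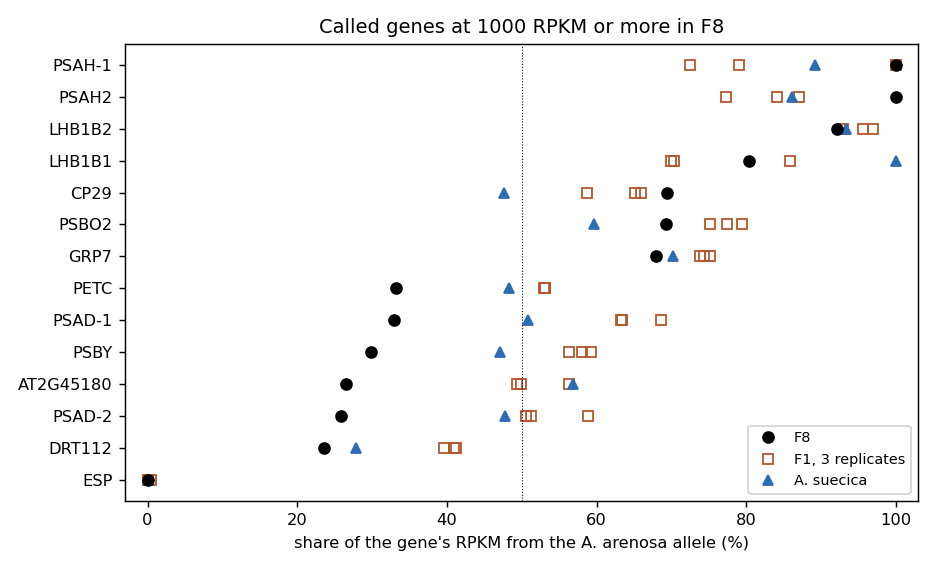
Share of a gene's RPKM from the A. arenosa allele, in percent, for the genes called at 1000 RPKM or more in F8, in F8 (dots), each F1 replicate (squares) and A. suecica (triangles). The F8 dots of PETC, PSAD-1, PSBY and PSAD-2 lie left of their F1 squares, and ESP lies at or near 0 in every library.

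At 200 to 1000 RPKM, 15.8% of all members were called toward A. arenosa and 7.60% toward A. thaliana. Of 72 members for ribosomal proteins in this class 8 were called toward A. arenosa and 4 toward A. thaliana, of 10 translation factors 3 and 0, and of 6 tubulins, the subunits of microtubules, 3 and 0. AT4G34670, a ribosomal S3Ae family protein, had 2.13 RPKM from the A. thaliana and 255 from the A. arenosa allele in F8. Its F1 ratio was 2.09, and its A. suecica values were 6.24 and 83.6 RPKM. RPS5A of the small ribosomal subunit and TUB5, a beta tubulin, were listed at 0 for the A. thaliana allele, with 335 and 286 RPKM from the A. arenosa allele.

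RPS5A is a ribosomal protein gene of dividing and growing tissue. In the F1 its A. thaliana and A. arenosa alleles were at 26.1 and 67.0, 34.0 and 78.2, and 37.7 and 77.8 RPKM, a ratio of 1.18 (SE 0.15, limma, adjusted p = 0.0045), and in A. suecica at 49.5 and 36.4. TUB5 had 0.422 and 73.7, 8.83 and 127, and 0.102 and 168 RPKM in the F1, and 53.2 and 152 in A. suecica. The A. arenosa allele of TUB5 was thus the higher in every allotetraploid library, and the A. thaliana allele was near 0 in F8 and in F1 replicates 1 and 3. The A. thaliana alleles of AT1G74270, a ribosomal L35Ae family protein, and GASA1, a gibberellin-regulated cell wall peptide, were listed at 0 in both F8 and A. suecica, with 234 and 225 RPKM from the A. arenosa allele in F8. In the F1 replicates the A. thaliana allele was present, at 1.95 to 17.8 RPKM for AT1G74270 and at 34.8 to 67.7 RPKM for GASA1.

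MAM3, the methylthioalkylmalate synthase that lengthens the side chain of aliphatic glucosinolates, had 3.99 RPKM from the A. thaliana and 319 from the A. arenosa allele. In the F1 its alleles were at 26.9 and 99.4, 24.1 and 211, and 46.8 and 212 RPKM, a ratio of 2.36, while in A. suecica they were at 44.3 and 9.61. The A. arenosa allele was the higher in F8 and in every F1 replicate, and the lower in A. suecica. AT5G24490, annotated as a 30S ribosomal protein, had 29.7 and 448 RPKM in F8, and AT1G23130 29.6 and 552 RPKM.

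Of the 26 genes called toward A. thaliana at this level, CSP41A stood lowest for the A. arenosa allele. CSP41A, an RNA-binding protein of the chloroplast, had 216 RPKM from the A. thaliana and 0.0981 from the A. arenosa allele in F8. In the F1 its alleles were at 96.1 and 0.299, 156 and 25.5, and 171 and 78.9 RPKM, and in A. suecica at 24.8 and 214. The A. arenosa allele thus ranged from nearly nothing in F8 and F1 replicate 1 to the higher of the pair in A. suecica. CT-BMY, a plastid beta-amylase of starch breakdown, had 191 and 29.8 RPKM in F8 and an F1 ratio of −0.50 (limma, adjusted p = 0.21). FBA1, a plastid aldolase of the Calvin cycle, had 165 and 67.7 RPKM in F8.

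Glutathione S-transferases, which join glutathione to toxic or reactive compounds, were called 1 toward A. arenosa and 6 toward A. thaliana among 22 members, beside 11.5% and 7.7% of all members, and the calls toward A. thaliana were 2 in each class from 20 to 1000 RPKM. In the F1, 2 of these 22 passed toward A. arenosa and 1 toward A. thaliana (limma, median ratio 0.28), beside 8.69% and 4.28% of all members tested. In A. suecica the calls were 3 and 3 of 22, beside 12.8% and 11.5% of all members compared. The difference from F8 was not tested. GSTU20 had 325 RPKM from the A. thaliana and 19.0 from the A. arenosa allele in F8. In the F1 its alleles were at 129 and 61.5, 208 and 142, and 147 and 96.4 RPKM (ratio −0.74, limma, adjusted p = 0.021), and in A. suecica at 106 and 258. The A. thaliana allele was the higher in F8 and the F1 and the lower in A. suecica. GSTU19, beside it on chromosome 1, had 177 and 59.6 RPKM in F8.

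At 50 to 200 RPKM, 13.3% of all members were called toward A. arenosa and 7.81% toward A. thaliana. Histones were called 5 toward A. arenosa and 0 toward A. thaliana of 17 members, ribosomal proteins 9 and 6 of 89, translation factors 5 and 1 of 20 and chaperones 5 and 2 of 23. The largest ratio toward A. arenosa with both alleles above 0.5 RPKM was that of EARLI1, a cold-inducible lipid-transfer type protein, with 0.839 RPKM from the A. thaliana and 60.0 from the A. arenosa allele. SDH1-1, the flavoprotein subunit of succinate dehydrogenase in mitochondria, had 0.590 and 51.3 RPKM. ADG1, the small subunit of ADP-glucose pyrophosphorylase that opens starch synthesis, had 9.11 and 130 RPKM. The ammonium transporter AMT1;1 was listed at 0 for the A. thaliana allele with 113 RPKM from the A. arenosa allele, and the catalase CAT1 at 0 and 83.7 RPKM.

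In the same class the polyubiquitin gene UBQ3 had 111 RPKM from the A. thaliana and 3.00 from the A. arenosa allele, with an F1 ratio of −5.43 and 143 and 0 RPKM in A. suecica. AT2G33830, of the dormancy and auxin associated family, had 150 and 2.51 RPKM. AT1G04800, a glycine-rich protein, had 92.0 and 1.16 RPKM in F8, while its F1 ratio was 0.91 toward A. arenosa. XTH6, an enzyme that cuts and rejoins xyloglucan in the cell wall, had 81.2 and 5.10 RPKM. The touch-induced calmodulin-like protein TCH3 and LrgB, a plastid membrane protein, were listed at 0 for the A. arenosa allele, with 103 and 99.8 RPKM from the A. thaliana allele.

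At 20 to 50 RPKM, 13.2% of all members were called toward A. arenosa and 8.74% toward A. thaliana. Of 7 members for chitinases, glucanases, thaumatins and other pathogenesis-related proteins, 4 were called toward A. arenosa and 3 toward A. thaliana. Of 14 cytochromes P450, 3 were called toward A. arenosa and 1 toward A. thaliana, of 5 glycosyltransferases of the UDP type 3 and 0, of 31 receptor-like kinases 3 and 4, and of 11 calmodulin and EF hand proteins, which bind calcium, 2 and 4. CYP71B23, a cytochrome P450, had 0.327 RPKM from the A. thaliana and 32.7 from the A. arenosa allele. The cytosolic malate dehydrogenase c-NAD-MDH2 had 1.01 and 34.5 RPKM. IGMT4, an O-methyltransferase of indole glucosinolates, had 45.1 and 2.09 RPKM, and HCF106, of the thylakoid protein translocase, 47.9 RPKM with the A. arenosa allele listed at 0.

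At 10 to 20 RPKM, 11.3% of all members were called toward A. arenosa and 8.01% toward A. thaliana. In this class 6 of 28 receptor-like kinases were called toward A. arenosa and 0 toward A. thaliana, with 4 and 0 of 7 cytochromes P450, 4 and 1 of 16 glycosyltransferases of the UDP type, and 3 and 4 of 36 proteins of Rab and vesicle traffic. EMB1144, a chorismate synthase of aromatic amino acid synthesis, had 0.741 RPKM from the A. thaliana and 16.8 from the A. arenosa allele. RABE1e, a Rab GTPase, had 9.90 and 0.833 RPKM. At 5 to 10 RPKM, beside 8.77% and 6.39% of all members, 6 of 86 members for ubiquitin ligases and F-box proteins were called toward A. arenosa and 3 toward A. thaliana, 4 and 1 of 36 receptor-like kinases, and 0 and 3 of 14 pentatricopeptide proteins, which bind RNA in organelles. DUR3, a urea transporter, had 0.532 and 7.62 RPKM, and RLM3, a TIR-type protein of resistance to fungi, 8.00 and 0.567 RPKM, with an F1 ratio of −2.64.

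Over all levels, the shares called toward A. arenosa were highest for the cell wall, lipid-transfer, and chitinase and pathogenesis-related lists, marker lists left aside. The following counts stand beside 11.5% and 7.7% of all members called toward A. arenosa and A. thaliana, and no list was tested. Expansins and xyloglucan enzymes, which loosen and rebuild the cell wall, were called 10 toward A. arenosa and 3 toward A. thaliana of 26 (median ratio 0.78). Lipid-transfer proteins were called 9 and 5 of 22 (median 0.70), and the chitinase and pathogenesis-related list 8 and 4 of 19 (median 0.26). Both lists were also high toward A. thaliana, at 22.7% and 21.1%. The excess toward A. arenosa was not shared by all defence genes. Salicylic acid and immune genes were called 4 and 4 of 19 (median −0.23), and NBS-LRR resistance proteins 1 and 3 of 18 (median −0.17). Cytochromes P450 were called 9 and 2 of 37 (median 0.25), and glycosyltransferases of the UDP type 8 and 2 of 33 (median 0.39). Beta-1,3-glucanases stood on both sides: BG3 had 6.52 RPKM from the A. thaliana and 39.3 from the A. arenosa allele, and BGL2 21.6 and 0.0467 RPKM in F8. In A. suecica they were at 0 and 784 RPKM (BG3) and 72.3 and 3.20 RPKM (BGL2), and the F1 ratios were 3.73 and −7.02 (limma, adjusted p = 0.0054 and 0.0021).

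Within the expansin and xyloglucan list, members of the same family stood toward different alleles. XTH7 had 14.6 RPKM from the A. thaliana and 70.8 from the A. arenosa allele in F8. Its alleles were at 11.8 and 34.8, 6.92 and 48.2, and 14.5 and 85.6 RPKM in the F1 (limma, SE of the ratio 0.25, adjusted p = 0.0038), and at 1.11 and 52.0 in A. suecica. XTH7 was toward A. arenosa in all of these libraries. XTH6, at 76.5% identity to XTH7 and toward A. thaliana in F8 as given above, had 17.0 and 10.9, 36.7 and 34.4, and 54.5 and 57.2 RPKM in the F1 (ratio −0.20, adjusted p = 0.43, limma) and 5.58 and 12.8 in A. suecica. XTH6 was thus 2-fold toward A. thaliana in F8 and in no F1 replicate. EXPA5, an expansin, had 27.5 and 62.4 RPKM in F8, with an F1 ratio of 1.55 and 12.5 and 56.2 RPKM in A. suecica. XTH18 and XTH19 were listed at 0 for the A. thaliana allele in F8, with 15.2 and 13.3 RPKM from the A. arenosa allele, and SEN4, another xyloglucan enzyme, at 0 for the A. arenosa allele with 20.6 RPKM from the A. thaliana allele. SEN4 varied among F1 replicates, with 86.6 and 11.3, 103 and 75.2, and 100 and 317 RPKM.

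Aquaporins, the water channels of the plasma and vacuole membranes, had 3 of 15 members called toward A. thaliana and 1 toward A. arenosa. PIP2A had 119 RPKM from the A. thaliana and 43.5 from the A. arenosa allele in F8, 40.5 and 26.5, 108 and 57.4, and 101 and 44.3 RPKM in the F1, and 262 and 213 in A. suecica. The A. thaliana allele of PIP2A was the higher in every library, and the F1 ratio was −0.89 (SE 0.17, limma, adjusted p = 0.013). PIP1C had 46.1 and 16.2 RPKM and PIP2B 19.2 and 6.60 RPKM, with F1 ratios of −2.60 and −1.32. PIP2;8 stood toward A. arenosa with 1.99 and 26.4 RPKM in F8 and an F1 ratio of 3.64.

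The lists of protein synthesis and folding had medians near 0. Ribosomal proteins were called 29 toward A. arenosa and 15 toward A. thaliana of 245 (median −0.06), a share of 11.8% toward A. arenosa that is near that of all members. Translation factors were called 11 and 1 of 79 (0.04), chaperones 15 and 4 of 128 (0.09) and histones 7 and 0 of 27 (0.04). The share of chaperones, 11.7%, was also near that of all members, and with equal sums the splits were 26 and 22 for ribosomal proteins and 11 and 7 for chaperones. Most members of these lists thus had alleles at like levels, with a few far toward A. arenosa. The proteasome, which degrades ubiquitin-tagged proteins, was called 0 and 4 of 46 (median 0.02), and the most unequal of these, AT5G38650 of the proteasome maturation factor UMP1, had 16.8 RPKM from the A. thaliana and 2.94 from the A. arenosa allele. Ubiquitin ligases and F-box proteins were called 13 and 12 of 179, and Rab and vesicle traffic 10 and 9 of 123, splits that turned to 9 and 15 and to 9 and 16 with equal sums.

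The histones toward A. arenosa encode core proteins of the nucleosome. Over the whole histone list, 5 of 27 passed toward A. arenosa in the F1 and 0 toward A. thaliana (limma, median ratio 0.32). The shares of all members tested were 8.69% and 4.28%. In A. suecica, 3 of 25 were called toward A. arenosa and 5 toward A. thaliana (median ratio −0.43), beside 12.8% and 11.5% of all members compared. The difference from F8 was not tested. AT5G10980 had 40.4 RPKM from the A. thaliana and 126 from the A. arenosa allele in F8. Its alleles were at 27.2 and 78.1, 27.1 and 117, and 36.9 and 137 RPKM in the F1 (ratio 1.81, SE 0.17, limma, adjusted p = 0.0028), and at 29.3 and 130 in A. suecica. In every allotetraploid library the A. arenosa allele of AT5G10980 was the higher. AT5G10400 and AT5G59970 were listed at 0 for the A. thaliana allele in F8, with 69.9 and 52.3 RPKM from the A. arenosa allele. AT5G59690, at 97.1% identity to AT5G59970, had 32.0 and 100 RPKM in F8 and 34.4 and 7.94 RPKM in A. suecica.

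Of translation factors, the elongation factor genes AT5G60390 and AT1G07940 had 174 and 441 RPKM and 115 and 268 RPKM from the A. thaliana and A. arenosa alleles in F8, with F1 ratios of 0.80 and 1.31. EIF3B-2, a subunit of the initiation factor that assembles the small ribosomal subunit on mRNA, had 2.08 and 12.6 RPKM in F8 and 2.56 and 9.71 in A. suecica. Its alleles were at 3.78 and 10.4, 3.20 and 8.78, and 3.02 and 8.60 RPKM in the F1 (ratio 1.24, SE 0.15, limma, adjusted p = 0.0041). EIF3B-2 was thus higher from the A. arenosa allele in every allotetraploid library. The single translation factor toward A. thaliana, AT5G54940 of the SUI1 family, had 74.3 and 34.6 RPKM in F8 and an F1 ratio of −1.02 (limma, adjusted p = 0.0081).

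Transcription factor families, and zinc finger proteins of any kind found by words in gene descriptions, had few calls for their size. These were 14 toward A. arenosa and 14 toward A. thaliana of 188 zinc finger proteins (10 and 17 with equal sums), 3 and 2 of 54 MYB, 3 and 3 of 25 bHLH, 3 and 0 of 20 WRKY, 3 and 0 of 14 NAC, 1 and 2 of 18 AP2/ERF and 0 and 1 of 16 bZIP members. WRKY33 and WRKY18, regulators of the response to pathogens, had 5.49 and 17.3 RPKM and 13.4 and 28.1 RPKM from the A. thaliana and A. arenosa alleles. NAC036 had 4.56 and 20.5 RPKM and an F1 ratio of 2.04 (limma, adjusted p = 0.0076). Receptor-like kinases were called 14 and 5 of 100 (10 and 8 with equal sums), NBS-LRR resistance proteins 1 and 3 of 18, and calmodulin and EF hand proteins 4 and 7 of 38. The circadian clock list was called 3 and 0 of 13. TOC1, an evening component of the clock, had 13.2 RPKM from the A. thaliana and 36.4 from the A. arenosa allele in F8, and 4.68 and 5.26 RPKM in A. suecica.

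Among genes of chromatin and small RNAs, 3 of 15 were called toward A. arenosa and 1 toward A. thaliana. AGO1, the argonaute protein that microRNAs act through, had 8.47 RPKM from the A. thaliana and 21.2 from the A. arenosa allele in F8. Its alleles were at 6.64 and 15.4, 6.83 and 14.6, and 8.27 and 25.4 RPKM in the F1, a ratio of 1.20 (limma, adjusted p = 0.0064), and at 11.6 and 36.3 in A. suecica. AGO1 mRNA came mostly from the A. arenosa allele in each of these libraries. AGO2 had 2.69 and 10.4 RPKM and RDR6, an RNA-dependent RNA polymerase that makes double-stranded RNA for silencing, 2.95 and 10.6 RPKM in F8.

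In jasmonate synthesis, neighbouring steps stood toward different alleles, and 5 of 20 members were called toward A. arenosa and 2 toward A. thaliana: AOC1, an allene oxide cyclase, had 10.4 RPKM from the A. thaliana and 164 from the A. arenosa allele, and AOS, the allene oxide synthase of the step before it, 165 and 32.1 RPKM. In glucosinolate metabolism the calls were 4 and 3 of 23, and 3 and 4 with equal sums. Starch genes were called 3 and 1 of 29 with a median of −0.32, cold and abscisic acid genes 3 and 2 of 15, salicylic acid and immune genes 4 and 4 of 19 (3 and 7 with equal sums), and ethylene genes 1 and 1 of 12. Genes of chlorophyll synthesis were called 2 and 2 of 21, of flavonoids 1 and 2 of 9, and of flowering time 0 and 1 of 6. The list found by Calvin cycle words in gene descriptions, which can take in enzymes outside the cycle, was called 1 and 1 of 20. These were PGK (AT1G79550) toward A. arenosa, with 45.4 and 124 RPKM, and FBA1 toward A. thaliana.

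Of the remaining lists, organelle ribosomal proteins (1 and 1 of 10), peroxidases (2 and 1 of 21), RNA helicases (3 and 1 of 40), jacalin lectins (2 and 2 of 6), aquaporins (1 and 3 of 15), ABC transporters (2 and 2 of 32), tubulins (4 and 1 of 15), actins (4 and 2 of 14), pentatricopeptide proteins (1 and 3 of 40) and senescence genes (1 and 2 of 9) had at most 4 calls in a direction. The classes found by words in the gene descriptions held 1749 members, 18.1% of all, with 203 of the calls toward A. arenosa and 126 of those toward A. thaliana, so most called genes lie outside these classes.

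**Figure D4:**
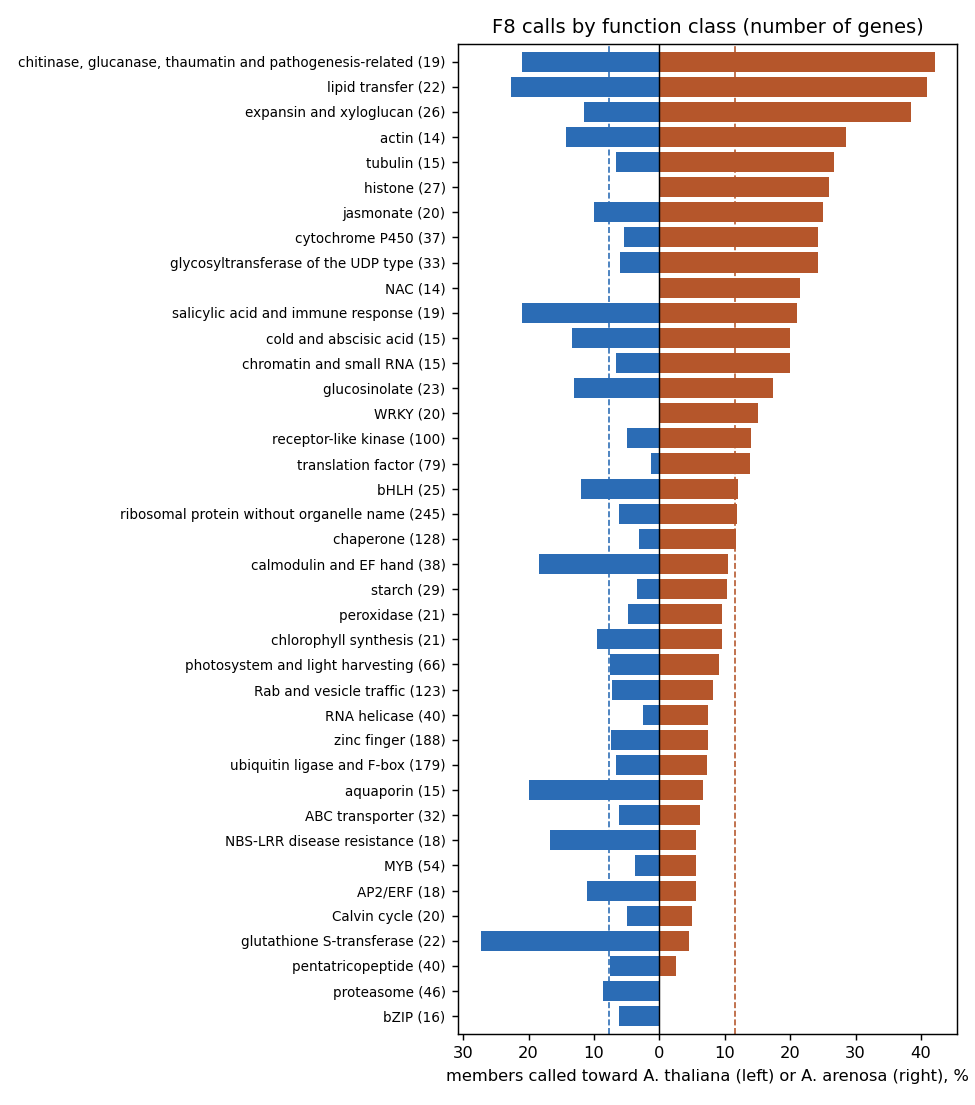
Percent of the members of each gene list called toward the A. arenosa and the A. thaliana allele in F8, beside the shares over all members, 11.5% and 7.7%. Expansin and xyloglucan, lipid transfer and pathogenesis-related lists stand highest toward A. arenosa among lists of more than 15 members, and glutathione S-transferases highest toward A. thaliana.

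The alleles were compared in libraries that the F8 ratio does not use. Of the 1112 genes called toward A. arenosa in F8, 1098 were tested in the F1, where 595 (54.2%) passed toward A. arenosa and 0 toward A. thaliana (limma, adjusted p below 0.05 and 2-fold). Their median F1 ratio was 1.03, 1.10 and 1.15 in replicates 1 to 3. Of the 746 genes called toward A. thaliana, 743 were tested in the F1, where 266 (35.8%) passed toward A. thaliana and 3 toward A. arenosa, with medians of −0.80, −0.86 and −0.73. Of the genes called toward neither, 234 passed toward A. arenosa and 144 toward A. thaliana of 7732 tested. Over all members tested, 8.69% passed toward A. arenosa and 4.28% toward A. thaliana. The F1 table lists only transcripts with both alleles above 0, so an allele missing from the F1 could not appear there.

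A. suecica is another allotetraploid, and its values stand beside those of F8 here. Of 1029 genes called toward A. arenosa in F8 and compared in A. suecica, 478 (46.5%) were 2-fold higher there for the A. arenosa allele and 57 (5.54%) for the A. thaliana allele, beside 12.8% and 11.5% of all members compared. Of 706 genes called toward A. thaliana, 266 (37.7%) were called toward A. thaliana and 43 (6.09%) toward A. arenosa. In the parents, 402 of 1094 genes called toward A. arenosa in F8 were 2-fold higher in the A. arenosa parent and 8 in the A. thaliana parent, beside 12.4% and 2.49% of all members. Of 735 genes called toward A. thaliana, 116 were higher in the A. thaliana parent and 40 in the other. Without A. arenosa replicate 1 these counts were 435 and 7, and 114 and 55. Over all 9404 members compared, leaving it out moved the counts from 1164 and 234 to 1482 and 226.

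Across genes, the F8 ratio had a Spearman correlation of 0.64, 0.71 and 0.66 with F1 replicates 1 to 3 (9683 genes), of 0.45 with A. suecica (9576 genes) and of 0.42 with the difference between the parents (9683 genes). These are descriptions over genes, which are not independent replicates, and all ratios share the authors' transcripts and division of reads. The correlation of the F8 ratio with the level of the gene was 0.02.

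**Figure D5:**
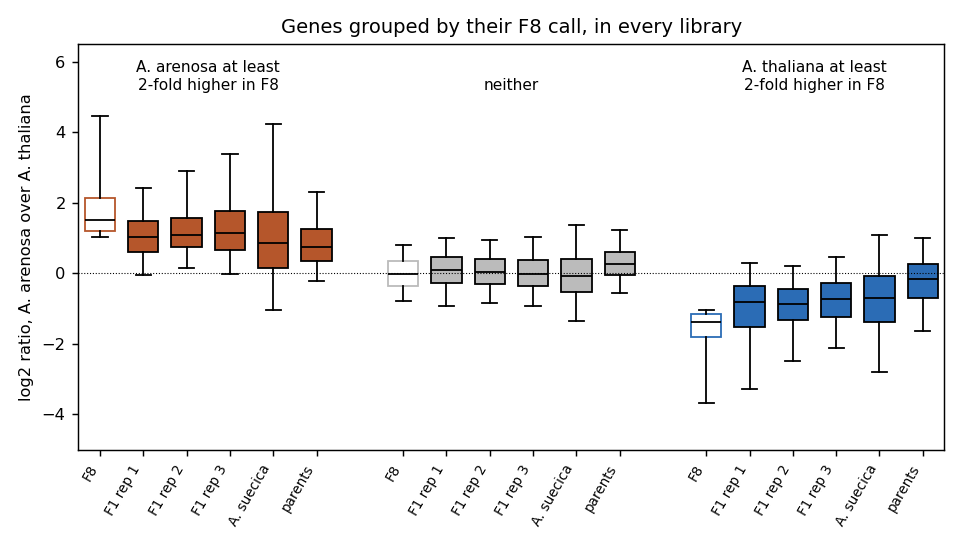
Allele ratios in the F1 and A. suecica, and the difference between the parents, for the genes called in F8 toward A. arenosa, toward neither and toward A. thaliana. Boxes give the median and quartiles and whiskers the 5 and 95 percentiles over genes. The median F1 ratio is 1.08 in genes called toward A. arenosa and −0.83 in those called toward A. thaliana.

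The 104 genes with the A. thaliana allele listed at 0 were spread over levels, with 21, 31, 24, 18, 8 and 2 genes from the lowest to the highest class. Of 100 tested in the F1, 81 passed toward A. arenosa, beside 8.69% of all members tested. In A. suecica the A. thaliana allele was also at 0 in 28 of the 92 compared there, beside 152 of 9167 members (1.66%). A close relative, at 90% identity or more, stood elsewhere in the genome for 15.7% of these genes, against 3.64% of all members, and its part in the values of 0 was not tested. Of the 29 genes with the A. arenosa allele at 0, 21 of 29 passed toward A. thaliana in the F1, beside 4.28% of all members tested. In A. suecica 11 of 28 compared were called toward A. thaliana and 1 toward A. arenosa, beside 11.5% and 12.8% of all members compared.

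Gene pairs with coding sequences of 90% identity or more numbered 137 among the members. In 14 pairs both genes were called toward A. arenosa, in 2 both toward A. thaliana, in 2 in opposite directions, in 41 a single gene was called, and in 78 neither. The opposite pairs, named because they are few, were CYP79F1 and CYP79F2, which start the synthesis of aliphatic glucosinolates, and the lectins AT1G78850 and AT1G78860. CYP79F1 had 24.7 RPKM from the A. thaliana and 8.19 from the A. arenosa allele in F8, and its neighbour CYP79F2 3.16 and 15.9 RPKM. The F1 had the same split, with ratios of −2.04 and 1.82 (limma, adjusted p = 0.0021 and 0.0036). The pairs toward A. arenosa included the fumarases FUM1 (4.18 RPKM from the A. thaliana and 22.1 from the A. arenosa allele) and FUM2 (19.6 and 71.1 RPKM). They also included the protein phosphatases FYPP1 (1.03 and 22.9 RPKM) and FYPP3 (0 and 13.3 RPKM), and the chaperones HSP81-2 (20.7 and 71.1 RPKM) and HSP81-3 (0 and 89.9 RPKM). The pairs toward A. thaliana were the polyubiquitins UBQ3 and UBQ4 and the resistance genes RPP8 and AT5G48620.

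Coding length and exon number, which the ratio does not use, were lower in called genes, with no test made. The median coding length was 1164 bp over all members, 1038 bp in genes called toward A. arenosa and 966 bp in those called toward A. thaliana, with medians of 6, 5 and 4 exons. Calls were not spread evenly over the chromosomes. On chromosome 3, 13.0% of members were called toward A. arenosa and 4.71% toward A. thaliana, with a median ratio of 0.13, while on chromosome 4 the shares were 10.3% and 10.2% with a median of −0.05. Chromosomes 1, 2 and 5 had 10.7%, 12.2% and 11.5% toward A. arenosa and 8.79%, 8.02% and 7.21% toward A. thaliana. These differences were not tested, and the medians of 191 windows of 50 neighbouring members ran from −0.45 to 0.43.

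Of the 1112 genes called toward A. arenosa, 808 had no neighbouring member called the same way, and of the 746 toward A. thaliana, 588. Only 11.5% and 7.7% of all members were called toward each allele. At these shares most called genes would stand alone in any case, and the placing of calls was not tested. The longest run, named because it is the longest, was 6 genes toward A. arenosa on chromosome 3 (TAIR10.1 positions 18770872 to 18863397). AT3G50590 had 5.85 RPKM from the A. thaliana and 13.6 from the A. arenosa allele, and the next 5 were listed at 0 for the A. thaliana allele: U1-70K, of the U1 splicing particle, with 13.2 RPKM from the A. arenosa allele, AT3G50685 with 82.7, AT3G50690 with 8.51, IDD2 with 14.8 and BEH1 with 11.2. In the F1 the ratios of the 6 genes were 0.16, −0.15, 0.21, −0.21, 0.77 and 0.01, and in A. suecica they lay between −0.62 and 0.60. The run was thus 2-fold in F8 and in neither the F1 nor A. suecica, and the flanking CRK and GATL2 were not called.

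A run toward A. thaliana that held alleles at 0, chosen after its values were seen, was of 4 genes on chromosome 1 (30000538 to 30018234), with values of 0 for the A. arenosa allele in 3. For the A. thaliana allele, ELF7, of the Paf1-type complex that acts in transcription, had 8.39 RPKM, AT1G79740 5.81 and the malic enzyme NADP-ME4 25.8, and FHY1 (AT1G79790), annotated as a haloacid dehalogenase-like hydrolase, had 23.0 and 6.20 RPKM. In the F1 the ratios were −1.98, −2.26, −1.81 and −0.37, and in A. suecica −0.01, −0.97, −0.52 and −0.17. The first 3 genes were thus toward A. thaliana in the F1 as well. The members just before the run, NUDT3 and AT1G79720, were called toward A. arenosa in F8 at ratios of 5.11 and 1.53. Their F1 ratios were 2.84 and 0.93. GC5, the next member after the run, was not called (0.20).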

How the data were processed

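Per the file headers and labels, the authors deposited RPKM per transcript (parents) or per allele (F1, F8 and A. suecica), on TAIR 9 per the submitters' processing notes. Aligner and allele division: not given in the sources used here. Every F8 transcript's allele sum had 6 significant digits or fewer.

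Ratios were taken on log2(RPKM + 1) with a sum of at least 5 RPKM and called at 2-fold. The design allowed for 1 library per group. The F1 table held 3 replicate columns, and limma 3.58.1 (R 4.3.3, trend) tested the ratio within columns over 10222 genes, with Benjamini-Hochberg adjusted p below 0.05 and 2-fold. On simulated data with 100 genes changed per size, it recovered 62 at a log2 size of 1.5 and 84 at 2.5, with 2 false calls. Level classes start at 5, 10, 20, 50, 200 and 1000 RPKM.

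Gene names, positions and 50 lists came from TAIR10.1 by gene ID (9644 of 9683 found, 39 not). Relatives came from BLAST 2.17.0 over at least 50% of the coding sequence. Other work used Python 3.11.15, numpy 2.4.6, pandas 2.3.3 and matplotlib 3.10.9.

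Most named genes were drawn from sets fixed by rule. These were the 12 largest ratios in each direction with alleles of at least 20 and 1 RPKM, and the 8 highest genes in each direction with the other allele below 0.5 RPKM. Further sets were the 4 largest in each level class, the 3 ends and all called genes of each list, the 10 highest sums, and genes opposite to every F1 replicate. Only part of these sets is printed, and genes near limits, in pairs and in runs were named as well. The members and lists were chosen with earlier results of these data known. No column was left unused (0).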

Additional observations from a re-analysis of the deposited data

Results flagged for a closer look

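AT3G16670, of the Pollen Ole e 1 family, was the gene called toward A. thaliana in F8 and toward A. arenosa in every F1 replicate. In F8 it had 32.0 RPKM from the A. thaliana and 2.07 from the A. arenosa allele, while in the F1 the alleles were at 14.7 and 39.3, 19.4 and 46.4, and 10.2 and 38.5 RPKM. The F1 ratio was 1.46 (SE 0.18, limma, adjusted p = 0.0042), while the F8 ratio was −3.43. A. suecica had 1.13 and 6.88 RPKM. With 1 F8 library, the difference between F8 and the F1 was not tested.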

How the results depend on the processing

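The count toward A. arenosa (1112) stayed within 1.5 times under 8 of 10 alternatives, from 933 to 1322, and that toward A. thaliana (746) under 8 of 10, from 717 to 968. One of these, leaving out genes with a relative at 90% identity (1037 and 720), was chosen after seeing the data. With 5 added to each RPKM the counts fell to 631 and 356, and with a sum of at least 20 RPKM, which leaves fewer genes, to 550 (13.4%) and 344 (8.37%). The median ratio became −0.10 with equal sums of both alleles and was positive under the other alternatives. The range of the called share over level classes was 8.24 percentage points, and 2.67 with 0.1 added. Leaving out each F1 replicate gave 769 to 956 F1 calls toward A. arenosa and 370 to 544 toward A. thaliana, beside 864 and 451. No paired analysis was possible because F8 is 1 library and the F1 test already takes both alleles from the same column. F8 values have no replicate error and unknown depth, and reads shared by close relatives cannot be told apart.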
